A study of Mus musculus with 4 samples.

Results

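The imprinted genes described here are 35 genes of the mouse that are transcribed mainly from the allele of a single parent in at least some tissues. They were chosen by symbol, and all 35 were found among the 55467 gene IDs of the files, each on a single ID. RNA was sequenced from primary cultures of mouse cortical astrocytes, glia that feed and support neurons, in 2 libraries from CD38 KO mice and 2 libraries from WT mice. CD38 is a surface enzyme that consumes NAD+. The cultures of both genotypes came from pups of postnatal day 1 to 3 and were grown in medium with 10% serum for 14 days, after which flasks were shaken for 12 h, and the cells that stayed attached were replated and harvested after 5 more days. The labels give no strain, no deleted exons, and no statement of whether the libraries of a genotype came from separate animals or cultures. Loss of Cd38 and any difference of strain cannot be told apart here. The p-values measure only the spread between these libraries, which may be technical.

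Imprinting is set in the germ line, where DNA methylation is placed on control regions of eggs or sperm. After fertilization the mark is kept on a single parental allele by KRAB zinc finger proteins such as ZFP57 and by the maintenance methyltransferase DNMT1. Imprinted genes sit in clusters in which a single control region often governs coding genes of both classes and a long noncoding RNA. Many of them set fetal growth, and several are restricted in the brain to neurons. UBE3A, for example, is made from the maternal allele in neurons and from both alleles in glia, and Grb10 is expressed from the paternal allele in neurons and from the maternal allele in most other tissues. Of the 35 genes, 18 are classed as paternally and 17 as maternally expressed. The classes come from general knowledge of the mouse, not from the files, which hold the sum of both alleles. The genes lie in 16 loci on 9 chromosomes, and 28 are protein coding.

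The files give FPKM, fragment numbers divided by transcript length and library size. Library size, estimated from the steps between low values, was 29031573 and 29089648 fragments in CD38 KO and 26841398 and 28253289 fragments in WT. Cd38 was at 0.0222 FPKM in each CD38 KO library, against 3.13 and 3.45 FPKM in WT (log2 change -2.07, limma adjusted p = 0.000575). All 10 astrocyte markers were tested, and their summed level was 2858 and 2896 FPKM in CD38 KO against 3336 and 3232 FPKM in WT, with 6 of 10 called lower and 2 higher. The 15 markers of microglia and macrophages summed to 740 and 659 FPKM in CD38 KO against 109 and 94.8 FPKM in WT, and 13 of the 13 tested were higher in CD38 KO. Of 11 neuronal markers 7 stayed below 1 FPKM in every library, and of the 4 tested 1 was higher and 1 lower. Of 9 tested markers of fibroblasts and meninges 1 was higher and 2 lower. Among tested markers of the oligodendrocyte lineage 0 of 7 were higher and 2 lower, among those of ependymal cells 3 of 4 were higher and 1 lower, and among those of endothelial cells and pericytes 0 of 2 were called, with 1 higher at an unadjusted p below 0.05 in limma.

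In these cultures 0 imprinted genes were called higher and 3 were called lower in CD38 KO. The 3 were Plagl1, a zinc finger transcription factor, Grb10, an adaptor that restrains insulin and IGF receptor signalling, and Snurf, a small open reading frame at the start of the Snrpn transcript. Plagl1 stood at 0.571 of its WT level, Grb10 at 0.540 and Snurf at 0.779. Genes were called by limma on log2(FPKM + 1) with a Benjamini-Hochberg adjusted p below 0.05, over the 13064 genes whose mean reached 1 FPKM. The 26 imprinted genes that reached that mean were tested. Of all tested genes 8.00% were called higher and 6.35% lower, beside 0 of 26 and 3 of 26 imprinted genes. At an unadjusted p below 0.05 a further 3 imprinted genes lay on the higher side, namely Blcap, Peg13 and Impact, 3 of 26 beside 16.3% of all tested genes.

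By parental class, 2 of 15 tested paternally expressed genes and 1 of 11 tested maternally expressed genes were called lower, beside 6.35% of all tested genes. In each class 0 were called higher, beside 8.00% of all tested genes. The median log2 change was 0.04 in the paternal class and -0.05 in the maternal class, against 0.00 over all tested genes. The median size of the change, regardless of sign, was 0.066 in the paternal class, 0.14 in the maternal class and 0.120 over all tested genes. The paternal class held the widest range, from -0.79 for Plagl1 to 0.38 for Peg13, and the maternal class ran from -0.64 for Grb10 to 0.20 for Ube3a. Both libraries of a genotype stood above both of the other in 14 of the 26 genes, 6 of 15 paternal and 8 of 11 maternal, and in 59.9% of all tested genes. The share of imprinted genes so separated, 53.8%, was near that background.

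**Figure D1:**
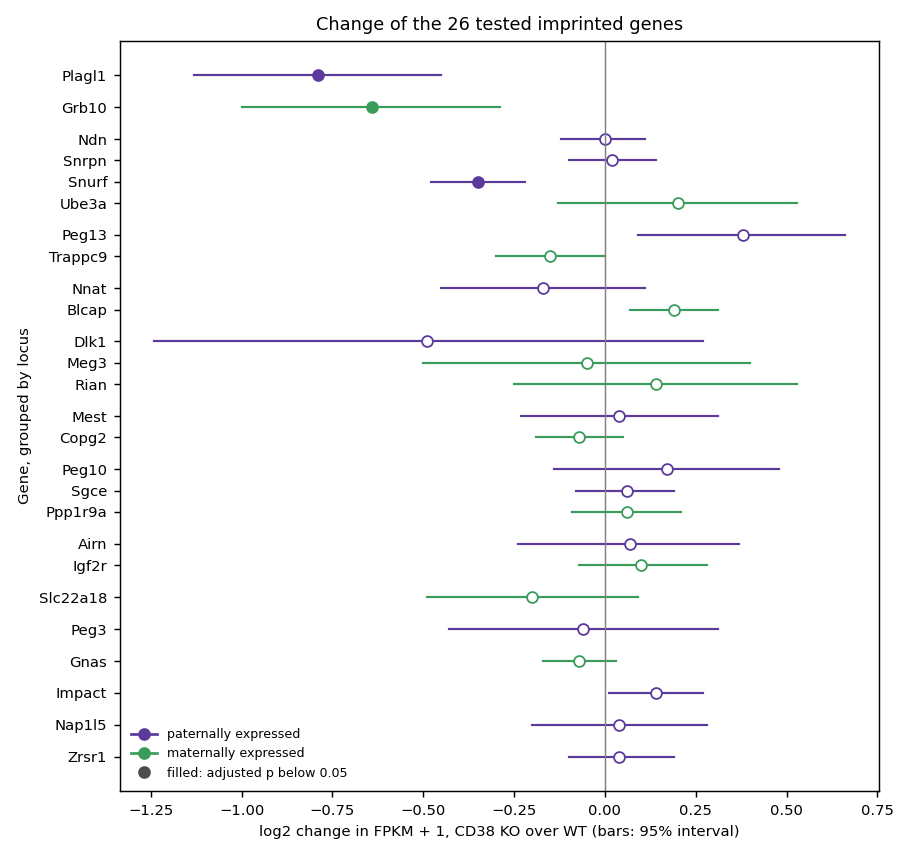
Log2 change in FPKM + 1 of the 26 tested imprinted genes, CD38 KO over WT, grouped by locus, with 95% intervals from limma. Filled points passed an adjusted p of 0.05; they are Plagl1 at -0.79, Grb10 at -0.64 and Snurf at -0.35, and all other points are open.

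For each of the 3 called genes a promoter window is shown that holds the hexamer TGCCGC, which ZFP57 binds when its CpG is methylated. The windows were picked after the calls, for holding it. The windows are 300 bases around a start annotated by RefSeq on GRCm38.p6, are written along the gene, and carry the hexamer or its reverse complement GCGGCA in capitals. The Snurf window is also a window of Snrpn.
Plagl1, chr10:13090582-13090881, plus strand: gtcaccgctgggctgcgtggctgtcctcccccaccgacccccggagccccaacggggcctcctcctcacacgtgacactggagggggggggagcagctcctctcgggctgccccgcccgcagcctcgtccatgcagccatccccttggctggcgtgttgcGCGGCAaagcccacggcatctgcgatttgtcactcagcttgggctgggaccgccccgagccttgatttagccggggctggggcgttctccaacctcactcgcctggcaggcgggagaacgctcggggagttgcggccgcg
Grb10, chr11:12037371-12037670, minus strand: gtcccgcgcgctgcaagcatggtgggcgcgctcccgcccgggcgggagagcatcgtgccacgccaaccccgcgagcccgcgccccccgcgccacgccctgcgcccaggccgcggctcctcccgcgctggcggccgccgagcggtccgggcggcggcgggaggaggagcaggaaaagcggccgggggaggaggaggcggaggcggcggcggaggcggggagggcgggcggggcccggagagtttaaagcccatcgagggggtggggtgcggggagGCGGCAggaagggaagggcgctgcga
Snurf and Snrpn, chr7:60005150-60005449, minus strand: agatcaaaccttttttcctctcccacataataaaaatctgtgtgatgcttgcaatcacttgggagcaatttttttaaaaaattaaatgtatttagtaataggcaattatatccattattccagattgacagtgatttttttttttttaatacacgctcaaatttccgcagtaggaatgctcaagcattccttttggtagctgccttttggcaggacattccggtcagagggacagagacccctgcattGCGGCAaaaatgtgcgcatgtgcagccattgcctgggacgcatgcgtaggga

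The first base of the match lies 90 bases before the Plagl1 start and 24 bases after the Grb10 start. For the start that Snurf shares with Snrpn it lies 2 bases before, and that match runs across the start. The other Grb10 window in RefSeq and the other 3 windows of Snrpn hold none. RefSeq windows were found for 28 of the 35 genes, 40 windows in all, and 11 of these (27.5%) hold the hexamer on either strand; the window of Snurf and Snrpn counts for both genes, and Mest has an overlapping pair. Besides the genes printed above, the hexamer is in windows of Copg2, Meg3, Mest, Nap1l5, Nnat and Zim1. Of these, Zim1 was not tested and the others were tested and not called, and Snrpn was not called either. Over all 32851 windows of 300 bases, 11.6% hold it. The windows of imprinted genes also hold more CpG, with a median of 12 per window against 7 over all windows. GGGGCCCC, the core that PLAGL1 binds, is its own reverse complement and is in windows of Peg3, Usp29 and Ppp1r9a, 3 of 40 (7.50%) against 1.08% of all windows. The windows of Peg3 and Usp29 overlap, and their match is the same site read from either strand, so it counts for both genes. A match describes these letters only, and methylation and binding were not measured.

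Plagl1 encodes a zinc finger transcription factor, also named ZAC1, that slows the cell cycle and in mouse embryos regulates other imprinted genes. The gene (ENSMUSG00000019817) lies on GRCm38 chromosome 10, 13060504 to 13131694, plus strand. Plagl1 was at 27.3 and 20.8 FPKM in the CD38 KO libraries, against 39.1 and 45.1 FPKM in the WT libraries. Both CD38 KO libraries lay below both WT libraries. The means were 24.1 ± 4.65 FPKM in CD38 KO and 42.1 ± 4.23 FPKM in WT (SD, n = 2 each), a log2 change of -0.79 (SE 0.14, limma adjusted p = 0.0183). The direction held without any library, at -0.98 to -0.60, but the call ended without WT 1 (adjusted p = 0.0700), without WT 2 (0.124), without CD38 KO 2 (0.0820) and with no filter on low values (0.120), and the adjusted p lay between 0.0131 and 0.124 over all alternatives. A replicate block, though the labels do not pair the libraries, also ended the Plagl1 call (limma adjusted p = 0.0568). In RNA from mixed cells, fewer cells of a type and less RNA per cell cannot be told apart. The summed astrocyte markers, given earlier, were also lower in CD38 KO, and those of microglia higher; their part in the change of Plagl1 was not tested.

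Of the imprinted genes that PLAGL1 is known to act on in other mouse tissues, H19, Cdkn1c and Dlk1 are among the 35. H19, a growth-restraining noncoding RNA that hosts miR-675, was at 0.317 and 0.714 FPKM in CD38 KO, against 0.531 and 0.890 FPKM in WT. Cdkn1c, the cell cycle inhibitor p57, was at 0.418 and 0.623 FPKM in CD38 KO, against 0.385 and 0.232 FPKM in WT. Both were below the mean of 1 FPKM and were not tested. Depending on which annotated transcript was made, these H19 values stand for 5.4 to 53.2 fragments per library and those of Cdkn1c for 2.2 to 31.4, so depth limits both. H19 overlapped between the genotypes and Cdkn1c did not, as was so for 59.9% of all tested genes. Cdkn1c shares 625 exon bases with Gm44732 on the opposite strand.

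Grb10 (ENSMUSG00000020176, chromosome 11, 11930508 to 12038683, minus strand) was the maternally expressed gene called lower. It was at 2.16 and 1.62 FPKM in CD38 KO, against 3.17 and 3.84 FPKM in WT, again with no overlap. The means were 1.89 ± 0.380 FPKM in CD38 KO and 3.51 ± 0.480 FPKM in WT (SD, n = 2 each), a log2 change of -0.64 (SE 0.14, limma adjusted p = 0.0388). On a scale with 0.1 FPKM added in place of 1, which shrinks low genes less, the change was -0.86. Leaving out any of the 4 libraries ended the call (adjusted p 0.0905 to 0.179), as did testing with no filter (0.153); over all alternatives the adjusted p lay between 0.0275 and 0.179. The replicate block ended the Grb10 call as well (limma adjusted p = 0.0974). The direction held without any library, at -0.78 to -0.51. Which parental allele these transcripts came from was not measured.

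Snurf (ENSMUSG00000102627, chromosome 7, 59995449 to 60005049, minus strand) was at 45.7 and 45.9 FPKM in CD38 KO, against 56.5 and 61.0 FPKM in WT. The means were 45.8 ± 0.155 FPKM in CD38 KO and 58.7 ± 3.14 FPKM in WT (SD, n = 2 each), a log2 change of -0.35 (SE 0.05, limma adjusted p = 0.0121). Snrpn, the spliceosome protein read from the same transcript, was at 43.8 and 42.4 FPKM in CD38 KO, against 43.3 and 41.7 FPKM in WT. The Snrpn change was 0.02 (95% interval -0.10 to 0.14, limma adjusted p = 0.824), and the genotypes overlapped. The ratio of Snurf to Snrpn was 1.04 and 1.08 in CD38 KO, against 1.30 and 1.46 in WT.

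The Snurf value rests on a transcript annotated with 216 bases, all of which (100%) are also exon of Snrpn and of the read-through gene Gm38393 on the same strand. Fragments there can be given to any of the 3 genes, so the Snurf level is uncertain. Fragments were estimated at 61 and 63 in CD38 KO and 74 and 79 in WT for Snurf, because the part of so short a transcript that counts toward FPKM is small. The depth-corrected ratio of these fragments was 0.768 (95% interval 0.601 to 0.980, exact Clopper-Pearson, counting error only). The length correction behind them was fitted on genes above 600 bases. Its error, and that of sharing fragments among the 3 genes, is not in this interval. The limma 95% interval, -0.48 to -0.22 on the log2 scale, is narrower than the counting interval, so the limma p-value leaves part of the counting error out. The Snurf call ended without WT 2, CD38 KO 1 or CD38 KO 2 (adjusted p up to 0.107) and when low genes were kept (0.0646), and the adjusted p lay between 0.00821 and 0.107 over all alternatives. Without Snurf, 2 of 25 tested imprinted genes (8.0%) were called lower, beside 6.35% of all tested genes.

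**Figure D2:**
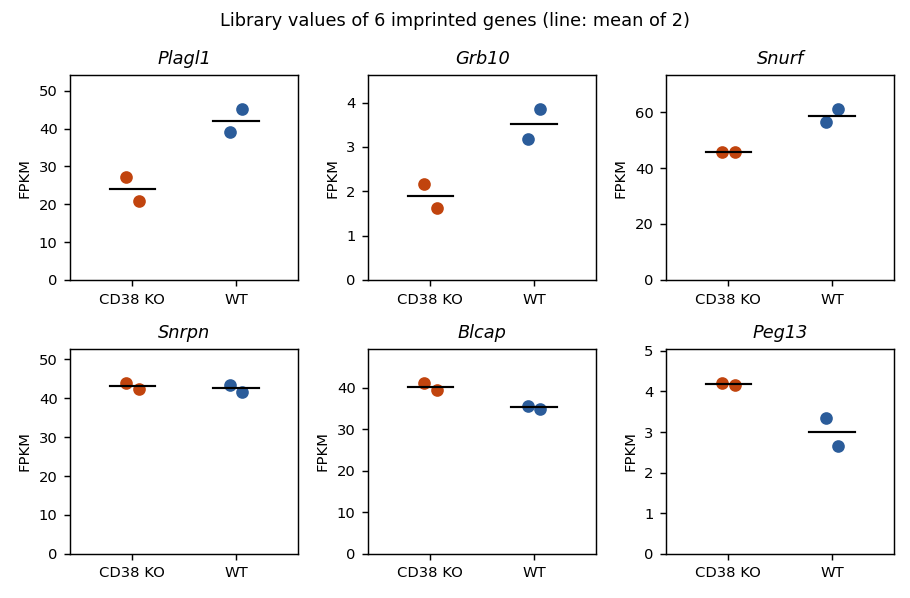
FPKM of 6 imprinted genes in each library, CD38 KO left and WT right, with a line at the mean of 2 libraries. Plagl1, Grb10 and Snurf lie lower in CD38 KO without overlap, Snrpn overlaps, and Blcap and Peg13 lie higher in CD38 KO without overlap but were not called.

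Ndn and Ube3a, the other tested genes of the Prader-Willi and Angelman locus around Snrpn, did not pass the test, and Magel2 was not tested. Ndn, a MAGE family protein that restrains growth of neurons, was at 32.2 and 32.5 FPKM in CD38 KO, against 32.0 and 32.9 FPKM in WT, and had a 95% interval of -0.12 to 0.11 on the log2 scale. Ndn has a single annotated transcript, and 3292 and 3329 fragments in CD38 KO and 3027 and 3276 in WT gave a depth-corrected ratio of 0.996 (95% interval 0.962 to 1.03). Magel2, its MAGE family neighbour, which acts with a ubiquitin ligase on endosomes, was detected by 1 fragment in CD38 KO 2 and 1 fragment in WT 1 and was listed at 0 in the other libraries. Ube3a, the ubiquitin ligase lost in Angelman syndrome, was at 25.2 and 23.3 FPKM in CD38 KO, against 24.2 and 18.1 FPKM in WT. WT 2 stood below the other libraries. The log2 change was 0.20 (limma adjusted p = 0.365), 0.40 without WT 1 (0.0745) and 0.00 without WT 2 (0.989). Ube3a shares 1803 exon bases with Snhg14 on the opposite strand, and the strand setting of the counting is not given in the sources used here.

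Of the paternally expressed genes above 10 FPKM, those outside the Snrpn locus and other than Plagl1 did not pass the test. Impact, an inhibitor of the GCN2 stress kinase, was the highest among them at 80.4 and 84.2 FPKM in CD38 KO, against 72.0 and 76.9 FPKM in WT. Its log2 change was 0.14 (95% interval 0.01 to 0.27, limma adjusted p = 0.136), with no overlap. Sgce, epsilon-sarcoglycan of the cell surface, was at 34.1 and 31.9 FPKM in CD38 KO, against 31.9 and 31.3 FPKM in WT. Zrsr1, a retrogene copy of a splicing factor that lies within Commd1 and shares 412 exon bases with it on the opposite strand, was at 27.8 and 28.0 FPKM in CD38 KO, against 28.2 and 25.9 FPKM in WT. Mest, a hydrolase-like protein of the endoplasmic reticulum whose intron holds miR-335, was at 15.9 and 19.7 FPKM in CD38 KO, against 18.0 and 16.4 FPKM in WT. For Sgce, Zrsr1 and Mest the 95% intervals were -0.08 to 0.19, -0.10 to 0.19 and -0.23 to 0.31.

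At lower levels, Peg13 had the largest positive change of the 26 genes. This noncoding RNA lies in an intron of Trappc9 on chromosome 15, 72805600 to 72810324, minus strand. It was at 4.20 and 4.16 FPKM in CD38 KO, against 3.33 and 2.66 FPKM in WT, with no overlap. The log2 change was 0.38 (95% interval 0.09 to 0.66) and did not pass (limma adjusted p = 0.0863). Its 555 and 551 fragments in CD38 KO and 408 and 342 in WT gave a depth-corrected ratio of 1.40 (95% interval 1.27 to 1.54, counting error only). Trappc9, a subunit of a vesicle tethering complex and the maternally expressed host, was at 19.4 and 20.7 FPKM in CD38 KO, against 22.9 and 21.7 FPKM in WT (log2 change -0.15, limma adjusted p = 0.173). The ratio of Peg13 to Trappc9 was 0.216 and 0.201 in CD38 KO, against 0.145 and 0.123 in WT. Trappc9 lies on the same strand, so fragments of its unspliced RNA could be counted for Peg13, and their share was not measured.

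A like nesting holds at Nnat, which lies in an intron of Blcap. Blcap, a conserved small protein of the maternally expressed class in brain, was at 41.1 and 39.6 FPKM in CD38 KO, against 35.7 and 34.96 FPKM in WT (log2 change 0.19, 95% interval 0.07 to 0.31, limma adjusted p = 0.0593). Nnat, a small proteolipid of the endoplasmic reticulum and paternally expressed, was at 2.18 and 2.12 FPKM in CD38 KO, against 2.36 and 2.74 FPKM in WT (-0.17, -0.45 to 0.11). Depending on which annotated transcript was made, these Nnat values stand for 13.4 to 98.8 fragments per library. The ratio of Nnat to Blcap was 0.0529 and 0.0535 in CD38 KO, against 0.0661 and 0.0783 in WT. The fitted changes of nested gene and host had opposite signs at both loci, though none of these 4 genes passed. Zrsr1, which lies within Commd1, showed no such separation. The ratio of Zrsr1 to Commd1 was 0.385 and 0.404 in CD38 KO, against 0.396 and 0.373 in WT. Nap1l5 overlaps Herc3 on the opposite strand, and that pair was not compared. The ratios between genes of a locus were looked at after the values were seen, and with 2 libraries against 2 an exact permutation test could not pass, so none was run.

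**Figure D3:**
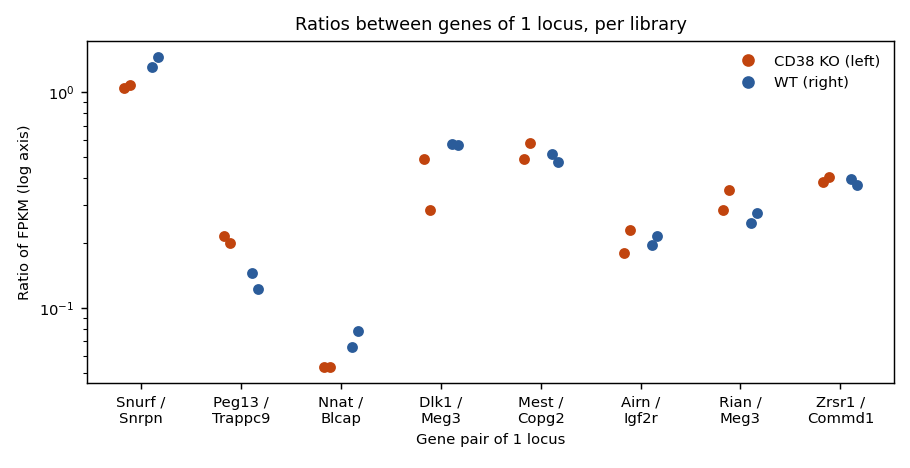
Ratio of FPKM between genes of the same locus in each library, on a log axis, CD38 KO left and WT right. The ratios of Snurf to Snrpn, Peg13 to Trappc9, Nnat to Blcap, Dlk1 to Meg3 and Rian to Meg3 do not overlap between the genotypes, and those of Mest to Copg2, Airn to Igf2r and Zrsr1 to Commd1 do. Levels of single genes do not overlap in 59.9% of all tested genes, and the share for ratios of other gene pairs was not computed.

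The Dlk1 to Dio3 locus carries the paternally expressed Dlk1 and the maternally expressed noncoding RNAs Meg3, Rian and Mirg. Dlk1, a transmembrane protein that acts on Notch signalling, was at 4.03 and 1.64 FPKM in CD38 KO, against 3.61 and 4.65 FPKM in WT. CD38 KO 2 was low and CD38 KO 1 lay between the WT libraries, so the genotypes overlapped, and the log2 change of -0.49 (95% interval -1.24 to 0.27) was -0.02 without CD38 KO 2. The 12 markers of fibroblasts and meninges summed to 97.5 and 59.2 FPKM in CD38 KO, against 48.0 and 63.7 FPKM in WT, and their part in the Dlk1 values was not tested. Meg3, a noncoding RNA of the nucleus, was at 8.25 and 5.77 FPKM in CD38 KO, against 6.31 and 8.17 FPKM in WT. Rian, which holds small nucleolar RNAs, was at 2.34 and 2.03 FPKM in CD38 KO, against 1.55 and 2.26 FPKM in WT. Neither passed (Meg3 95% interval -0.50 to 0.40, Rian -0.25 to 0.53), and both overlapped. Mirg was at 0.504 and 0.123 FPKM in CD38 KO, against 0.102 FPKM in WT 1 and 0 in WT 2. RefSeq places 14 miRNA hairpins within Mirg, 3 within Rian and 1 within Meg3, and mature miRNAs were not measured.

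Among maternally expressed genes outside these loci, Gnas was by far the highest of the 35. Gnas, which encodes the stimulatory G protein subunit and is biallelic in most tissues, was at 612 and 602 FPKM in CD38 KO, against 639 and 634 FPKM in WT (log2 change -0.07, 95% interval -0.17 to 0.03). Copg2, a coatomer subunit, was at 32.6 and 33.8 FPKM in CD38 KO, against 34.96 and 34.8 FPKM in WT. It shares 912 exon bases with Mest on the opposite strand. Igf2r, the receptor that carries IGF2 and lysosomal enzymes to lysosomes, was at 12.1 and 11.8 FPKM in CD38 KO, against 11.5 and 10.6 FPKM in WT. Its paternally expressed antisense RNA Airn was at 2.16 and 2.698 FPKM in CD38 KO, against 2.25 and 2.28 FPKM in WT. Ppp1r9a, the actin-binding protein neurabin, was at 10.4 and 10.3 FPKM in CD38 KO, against 9.76 and 10.0 FPKM in WT. Slc22a18, a membrane transporter, was at 5.30 and 6.75 FPKM in CD38 KO, against 6.76 and 7.27 FPKM in WT. None of Gnas, Copg2, Igf2r, Airn, Ppp1r9a and Slc22a18 passed, and the widest 95% intervals were those of Airn, -0.24 to 0.37, and Slc22a18, -0.49 to 0.09.

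The remaining tested genes were the paternally expressed Nap1l5, Peg10 and Peg3. Nap1l5, a nucleosome assembly protein, was at 9.48 and 10.1 FPKM in CD38 KO, against 8.68 and 10.4 FPKM in WT. Peg10, derived from a retrotransposon, was at 1.76 and 1.55 FPKM in CD38 KO, against 1.32 and 1.40 FPKM in WT. Peg3, a zinc finger protein, was at 0.886 and 1.23 FPKM in CD38 KO, against 1.10 and 1.16 FPKM in WT, just above the mean of 1 FPKM required for testing. None passed, and Peg10 was the one without overlap.

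Of the 9 genes that were not tested, 6 are maternally expressed. Phlda2, a growth restrainer of the placenta, and the ubiquitin protease gene Usp29 were at 0 in every library. Zim1, a zinc finger gene beside Peg3, was at 0.0778 and 0.0657 FPKM in CD38 KO, against 0.295 and 0.113 FPKM in WT. Asb4, a subunit of ubiquitin ligases, was at 0.184 and 0.143 FPKM in CD38 KO, against 0.0836 and 0.0794 FPKM in WT, which stands for 2.2 to 16.6 fragments per library. Kcnq1ot1, the long antisense RNA of the Kcnq1 locus, was at 0.0215 and 0.0303 FPKM in CD38 KO, against 0.0277 and 0.0343 FPKM in WT, or 58 and 82 fragments against 69 and 90. H19, Cdkn1c, Mirg and Magel2 complete the 9. With no filter, 7 of the 9 entered the fit and none passed, with adjusted p between 0.206 and 0.997.

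**Figure D4:**
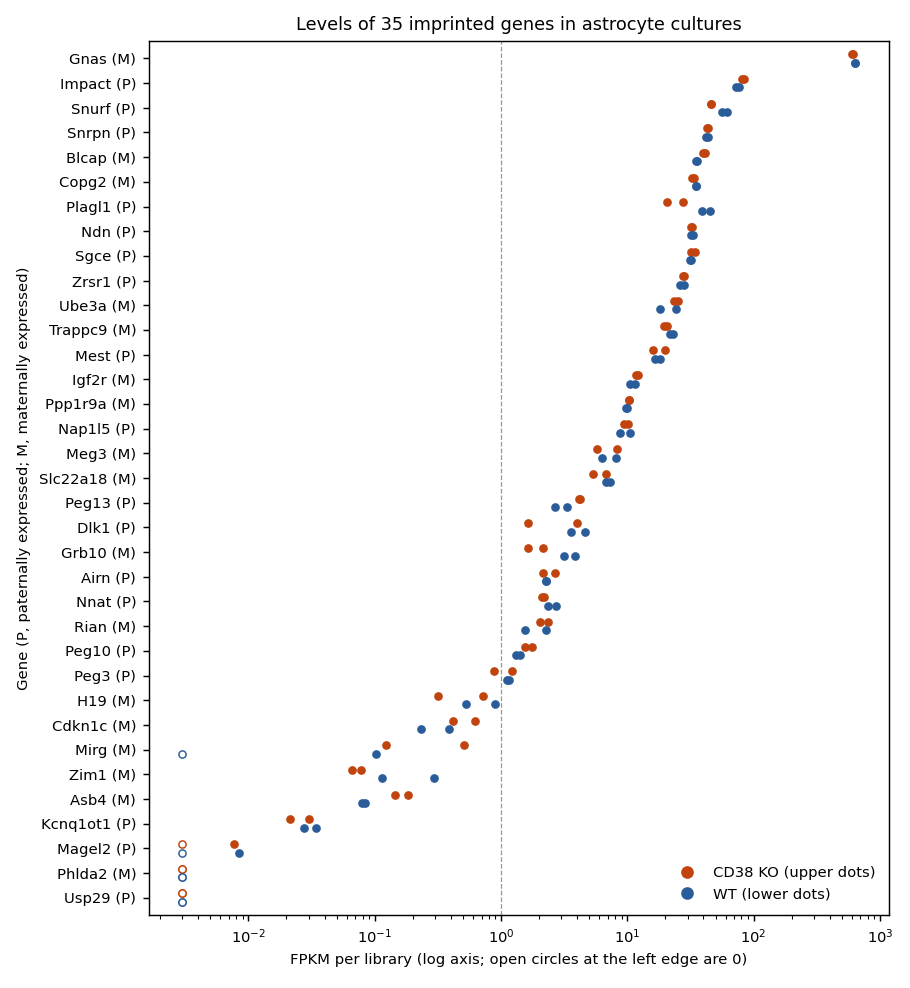
FPKM of the 35 imprinted genes in each library on a log axis, ordered by mean, CD38 KO above WT in each row. Open circles at the left edge are 0 and the dashed line marks 1 FPKM; 26 genes have a mean of at least 1 FPKM, Gnas is highest at 602 to 639 FPKM, and Phlda2 and Usp29 are at 0.

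In FPKM, which is per length, 15 genes had a mean above 10 and 11 had a mean of 1 to 10, and 13 of the 35 stood above the median tested gene (12.4 FPKM). Of the 26 tested genes 21 changed by less than 0.25 on the log2 scale, and in 20 the 95% interval lay within 0.5 either way. In Dlk1, Plagl1, Grb10, Peg13, Rian and Ube3a it reached further.

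A wider list of 57 genes listed as imprinted in at least some mouse tissue, often the placenta alone, had 31 tested genes, of which 6 were called higher and 2 lower, beside 8.00% and 6.35% of all tested genes. Their median log2 change was 0.04. Gatm, which makes the creatine precursor, was at 5.61 and 4.83 FPKM in CD38 KO, against 1.006 and 1.18 FPKM in WT (log2 change 1.57, SE 0.12, limma adjusted p = 0.00105) and was called in all 4 fits without 1 library. Qpct, a glutaminyl cyclase, was at 4.40 and 4.79 FPKM in CD38 KO, against 2.54 and 2.42 FPKM in WT. Bcl2l1, the survival factor BCL-XL, was at 90.3 and 87.8 FPKM in CD38 KO, against 72.1 and 72.7 FPKM in WT. Dhcr7, of cholesterol synthesis, and Pde4d, a cAMP phosphodiesterase, were also called higher, at log2 changes of 0.31 and 0.37. Beyond the 6 of smallest p, Ascl2 was called higher and H13 lower, named after their values were seen. Ampd3, an AMP deaminase, was called lower at 79.2 and 82.5 FPKM in CD38 KO, against 104 and 108 FPKM in WT, and lost the call without CD38 KO 1 (adjusted p = 0.0592). Qpct, Bcl2l1, Dhcr7 and Pde4d lost it in each fit without 1 library. Igf2, the growth factor paired with H19, was below 1 FPKM in every library.

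Of 24 genes that place or keep imprints, 21 were tested, 0 were called higher and 2 lower, and at an unadjusted p below 0.05 in limma 0 were higher and 4 lower. Beside these counts, 8.00% of all tested genes were called higher and 6.35% lower, and 16.3% and 13.9% lay higher and lower at the unadjusted threshold. The median log2 change was -0.08. Hells, a chromatin remodeller needed for DNA methylation, was at 1.54 and 1.30 FPKM in CD38 KO, against 2.71 and 3.01 FPKM in WT (log2 change -0.67, limma adjusted p = 0.0203). Mbd3, a subunit of the NuRD complex, was at 45.0 and 41.7 FPKM in CD38 KO, against 50.6 and 51.1 FPKM in WT (-0.23, 0.0464). Both calls ended in each fit without 1 library. Zfp57, whose hexamer is shown above, was at 1.74 and 1.85 FPKM in CD38 KO, against 2.52 and 2.75 FPKM in WT, and did not pass (limma adjusted p = 0.0784, 0.0356 to 0.247 over alternatives). Nor did Uhrf1, which brings DNMT1 to replicated DNA (log2 change -0.43, limma adjusted p = 0.0611). Trim28, the partner of ZFP57, and Zfp445, which encodes a related zinc finger protein, did not pass, with 95% intervals of -0.23 to 0.12 and -0.25 to 0.11. Dnmt1 was at 6.40 and 6.14 FPKM in CD38 KO, against 6.52 and 6.89 FPKM in WT. Zfp57, Uhrf1, Trim28, Zfp445 and Dnmt1 were named after their values were seen.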

How the data were processed

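RNA was measured in 4 libraries of cultured astrocytes, 2 CD38 KO and 2 WT. A stranded kit with polyA selection was used, per the labels' protocols. Cufflinks 2.2.1, STAR 2.7.0f and bcl2fastq 2.17 are listed, with build GRCm38 and no stated roles, per the submitters' processing notes. Per the file headers, the authors deposited FPKM, 1 value per Ensembl gene. The sources used here do not give the annotation release, the strand setting or any scaling between libraries.

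Positions came from GENCODE M21 (GRCm38), which matched 55226 of 55467 IDs and all 35 imprinted genes. Fragment totals were fitted so that low values of genes with a single transcript above 600 bases fell on whole fragments. From 17493 such genes, 3173 to 3253 low values per library, above 0 and below 10 fragments, were used. Of these, 91.8% to 92.4% lay within 0.1 of a whole fragment. Exact intervals built on fragments hold counting error alone.

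A mean of 1 FPKM was required for testing. The test was limma 3.58.1 (R 4.3.3), run on log2(FPKM + 1) for genotype alone, with trended moderation and Benjamini-Hochberg adjustment over 13064 genes. The fit was also run on simulated normal values with a spread set by level alone. At a log2 change of 0.5, 96.8% of changed genes were recovered, and 4.46% of calls were false. These values hold no counting error and no spread particular to a gene, so they do not show whether the calls here hold. No count test was run, since FPKM are not counts. Alternatives were 0.1 or 0.5 added before the log, no filter, a filter at 5 FPKM, quantile and median-of-ratios scaling, other moderation, a replicate block and each library left out. A genotype reduced to 1 library takes its spread from the other. Where a symbol of the lists stood on several IDs, the ID of highest mean was used; 1 of 57 symbols of the wider list had no ID.

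The genes and lists were chosen with earlier results of these data known. Named were all 35 genes, up to 6 called genes of smallest p of each further list, and 2 markers of a cell type at most. Tables were made in Python 3.11.15 (pandas 2.3.3, numpy 2.4.6), intervals in scipy 1.17.1 and plots in matplotlib 3.10.9.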

Additional observations from a re-analysis of the deposited data

How the results depend on the processing

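Over the 9 alternatives that keep all libraries, 226 values of the tested imprinted genes were computed; 5 lost their call, 0 turned or gained one, and the others kept direction and side of the threshold. With no filter, 0 imprinted genes were called lower, and the other counts were 430 genes higher and 312 lower among all, 2 higher and 1 lower in the wider imprinted list and 0 lower among maintenance genes. More genes are tested there. At a filter of 5 FPKM, 0 maternally expressed genes were lower because Grb10 is not tested, with 3 of the wider list higher and 1 maintenance gene lower. Moderation without a trend gave 1 lower gene in the wider list.

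With the replicate block, Plagl1 (adjusted p = 0.0568) and Grb10 (0.0974) lost their calls, and 1 imprinted gene was lower, namely Snurf, hence 1 paternal and 0 maternal, against 610 genes higher and 427 lower among all, 3 and 1 in the wider list, and 0 maintenance genes. The labels do not say that the numbers pair libraries, and the correlation of replicate 1 minus replicate 2 between the genotypes, across 13064 genes, was -0.161.

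Without 1 library, 0 to 1 imprinted genes were lower (paternal 0 to 1, maternal 0 to 0), against 306 to 458 genes higher and 225 to 284 lower among all, 1 to 1 higher and 0 to 1 lower in the wider list and 0 to 0 lower maintenance genes. In 14 of 104 such fits the direction turned, in 9 genes that were not called, with log2 changes of -0.27 to 0.18 for Meg3, -0.04 to 0.32 for Rian, -0.18 to 0.06 for Peg3, -0.10 to 0.19 for Mest, -0.08 to 0.16 for Nap1l5, -0.02 to 0.02 for Ndn, -0.01 to 0.05 for Snrpn, -0.05 to 0.18 for Airn and -0.02 to 0.10 for Zrsr1. The causes were not tested. Of the genes below 1 FPKM, those with few fragments are limited by depth. The log2(FPKM + 1) scale shrinks changes at such levels, also for the long Kcnq1ot1.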
